A study of Homo sapiens with 16 samples.

Results

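STYK1 (ENSG00000060140) is a protein-coding gene on the minus strand of chr12:10771522-10826917 (GRCh37). It was followed transcript by transcript through the BJ model, and its members were the 6 listed transcripts assigned to the gene, out of 180253 transcripts in the table and of 6 STYK1 transcripts in the annotation. The gene had been chosen by its high TPM in single atmospheric libraries of the transformed and metastasizing stages, so its levels are given as a description, with no test. All 16 libraries came from BJ, an established human fibroblast line, in 4 stages that each build on the previous one: BJ itself (primary), BJ hTERT+ (immortalized), BJ hTERT+ SV40+ (transformed) and BJ hTERT+ SV40+ Ras-G12V (metastasizing). Each stage was grown for 6 passages either at atmospheric oxygen or at 3% oxygen, termed moderate hypoxia, and each of the 8 groups had 2 libraries, a and b, from plates cultivated side by side. Each stage was represented by 1 cell line, so a stage cannot be told apart from that line, and the spread between a and b covers plates and libraries only. Values are kallisto TPM, estimated reads corrected for transcript length and scaled to a sum of 1000000 in every library. The depth behind them is unknown, and no counting interval can be given.

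STYK1, also known as NOK, encodes a membrane-anchored kinase whose single catalytic domain resembles those of receptor tyrosine kinases, while the ligand-binding part outside the cell is largely missing. Forced expression of the protein is known to activate the RAS-MAPK and PI3K-AKT pathways and to transform cells, and high levels have been described in several carcinomas. The protein has also been linked to the class III PI3K complex that starts autophagosome formation.

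The 6 transcripts differed widely in length and in what they contain. STYK1-201 (ENST00000075503) was the only complete one, with 2771 bases in 11 exons (chr12:10771522-10826651) and a coding sequence of 1266 bases. STYK1-202, STYK1-203, STYK1-204 and STYK1-205 had 520, 586, 543 and 582 bases, began at or near the 5′ end of the gene and were annotated with an open 3′ end, so they hold only the first part of the coding sequence. STYK1-206 (ENST00000542924) had 249 bases in 2 exons (chr12:10780239-10782237), was annotated as coding throughout, and had neither its start nor its end found.

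STYK1-206 lies inside the coding sequence of the full-length transcript, within exons 6 and 7, and shares 230 of its bases with positions 769 to 998 of STYK1-201. Its other 19 bases are an 18-base stretch (chr12:10782074-10782091) at the end of exon 6, which is intronic for the full-length transcript, and 1 base at its 3′ end. The whole transcript is shown first because it carried both high values, with the 18-base stretch in capitals. The other lines set the junction of exons 6 and 7 in the short and in the full-length transcript side by side, all 5′ to 3′ on the minus strand of GRCh37 and spliced.
STYK1-206: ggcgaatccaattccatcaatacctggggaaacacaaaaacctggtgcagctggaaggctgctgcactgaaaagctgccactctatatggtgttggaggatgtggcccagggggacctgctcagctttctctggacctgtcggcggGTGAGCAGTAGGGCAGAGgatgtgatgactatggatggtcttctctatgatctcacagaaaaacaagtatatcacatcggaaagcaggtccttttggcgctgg
STYK1-206 junction: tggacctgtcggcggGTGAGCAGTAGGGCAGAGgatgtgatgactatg
STYK1-201 junction: tggacctgtcggcgggatgtgatgactatg
The stretch opens with GT, keeps the reading frame with 6 added codons and holds 0 stop codons. Of the 219 runs of 31 bases in STYK1-206, 173 (79.0%) also occurred in the full-length transcript and 46 (21.0%) occurred in no other listed transcript, so reads from most of the fragment fit both. No other gene shared a run of 31 bases with any STYK1 transcript.

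**Figure D1:**
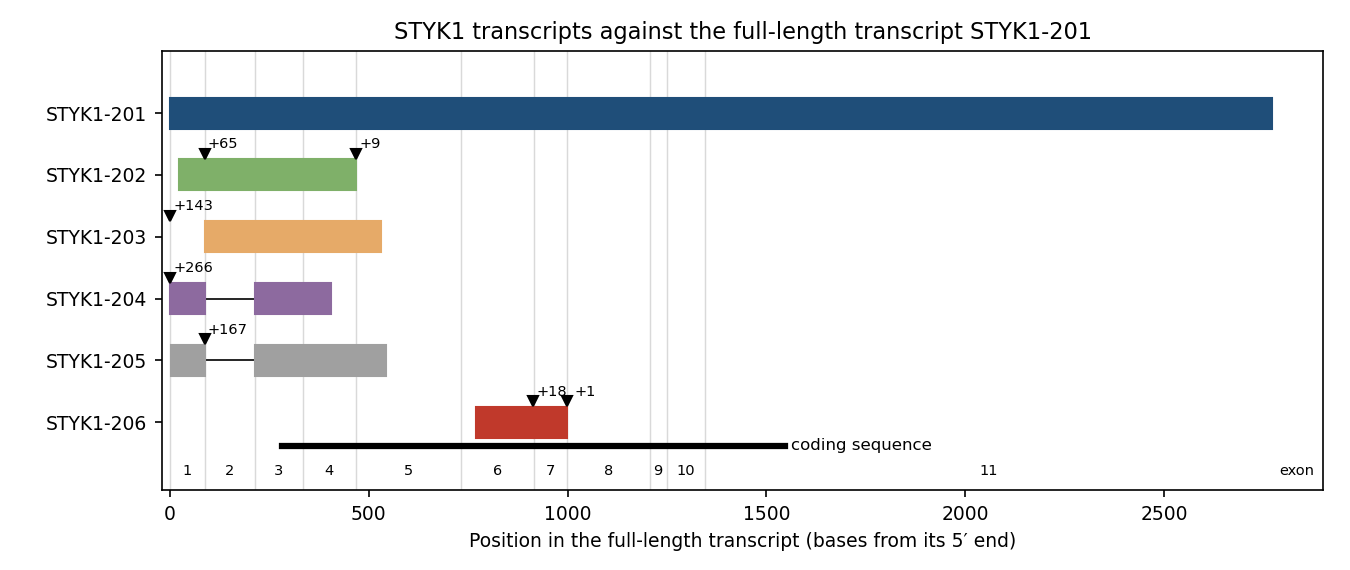
The 6 STYK1 transcripts are drawn against positions of the full-length transcript in bases from its 5′ end, with exon numbers and the coding sequence at the bottom; boxes are shared bases, thin lines skipped ones, and triangles mark the number of added bases. STYK1-206 covers positions 769 to 998, in exons 6 and 7, with 18 bases added between them.

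The high STYK1 values in single libraries were carried by STYK1-206 alone. This 249-base fragment was listed at 26.5 TPM in transformed atmospheric replicate a and at 0 in replicate b. In the metastasizing stage at atmospheric oxygen it was listed at 0 in replicate a and at 77.6 TPM in replicate b. It stood at 0.181 TPM in metastasizing 3% replicate a and was listed at 0 in the other 11 libraries. It held 89.3% of the gene's TPM in the high transformed library and 95.9% in the high metastasizing library, against 4.49% in metastasizing 3% replicate a.

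The full-length transcript STYK1-201, by contrast, was present in all 16 libraries and its replicates lay close together. In the primary stage it stood at 1.37 and 1.56 TPM (replicates a and b) at atmospheric oxygen and at 5.78 and 5.70 TPM at 3% oxygen. In the immortalized stage the values were 0.636 and 0.504 TPM at atmospheric oxygen and 1.84 and 2.00 TPM at 3% oxygen. In both stages each 3% library exceeded each atmospheric one. The transformed stage gave 2.66 and 2.56 TPM at atmospheric oxygen and 1.98 and 1.68 TPM at 3% oxygen, so here both 3% libraries were the lower ones. The metastasizing stage gave 2.30 and 2.66 TPM at atmospheric oxygen and 2.53 and 3.61 TPM at 3% oxygen, and the groups overlapped. In the 2 libraries with the high fragment, STYK1-201 thus stood at 2.66 TPM in both cases, 1.04-fold and 1.16-fold above the other replicate of its group. Over the 8 groups the higher replicate of STYK1-201 was 1.01 to 1.43 times the lower one, the widest pair being metastasizing at 3% oxygen.

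The 4 partial transcripts with an open 3′ end stayed at low TPM. Together they were listed at 0 in 7 libraries and above 0 in 9, at 2.11 TPM at most (primary 3% replicate a, 26.7% of the gene) and 32.7% of the gene at most (metastasizing 3% replicate a, 1.32 TPM). STYK1-202 was above 0 in 4 libraries, with 1.50 TPM in primary 3% replicate a as the highest value of the set and 18.98% of the gene's TPM there. STYK1-203 was above 0 in 2 libraries, at 0.261 TPM in metastasizing atmospheric replicate a and 0.369 TPM in metastasizing 3% replicate a. STYK1-204 was above 0 in 7 libraries, between 0.227 and 0.605 TPM, and STYK1-205 in 5 libraries, between 0.161 and 0.541 TPM. All 4 were listed at 0 in both atmospheric libraries of the immortalized stage. In every library other than the 2 high ones, STYK1-201 was the leading transcript, with 62.8% to 100% of the gene's TPM.

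**Figure D2:**
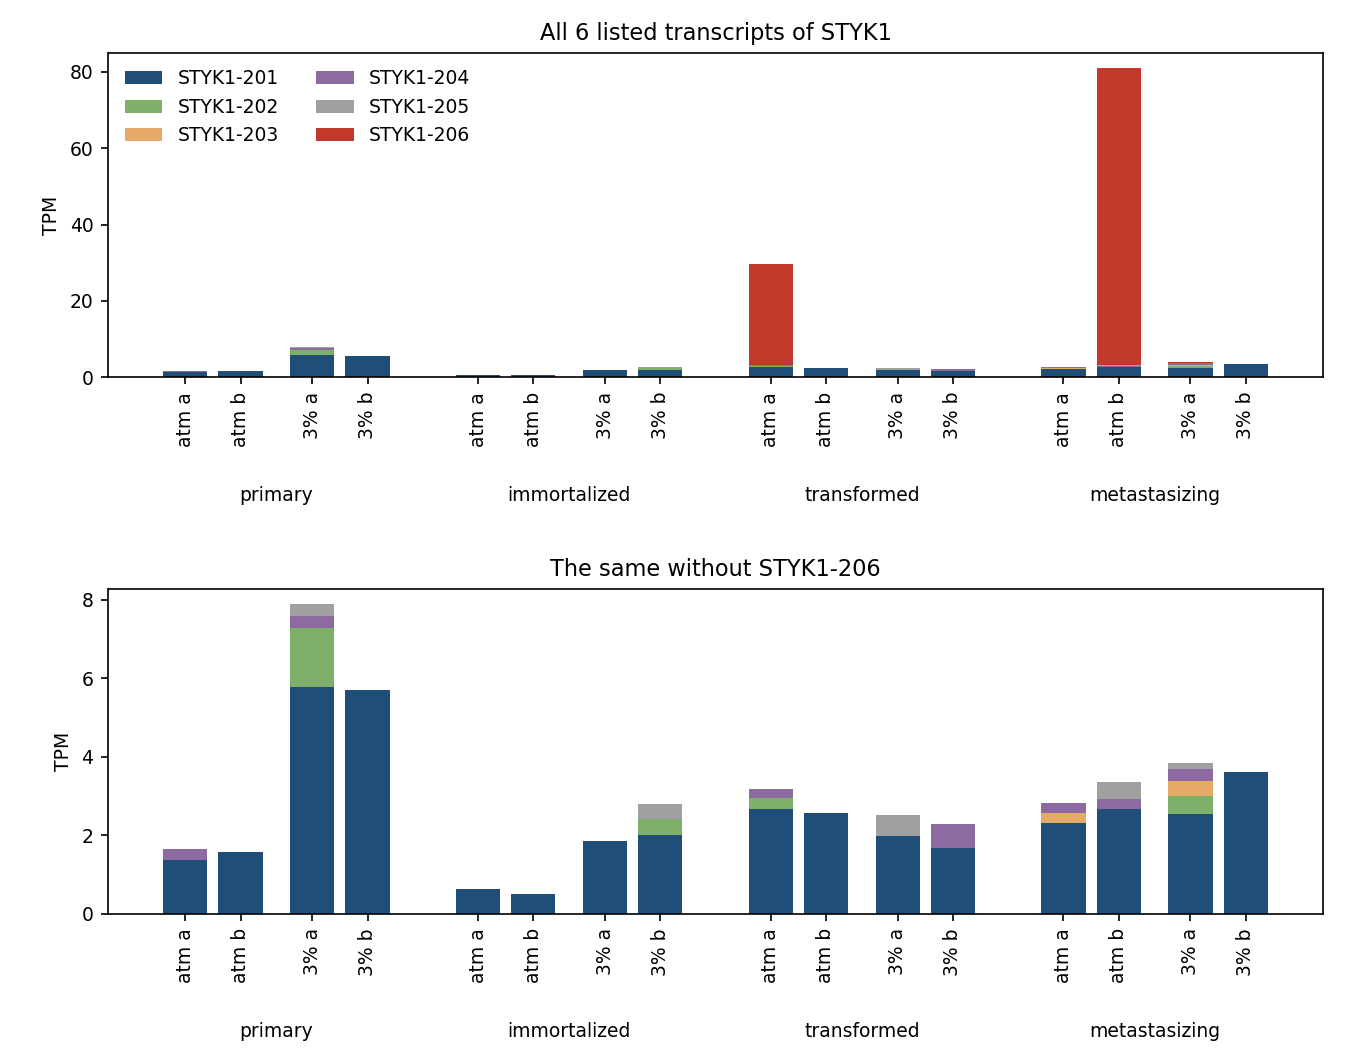
Stacked bars give TPM by transcript in each of the 16 libraries (atm, atmospheric oxygen; 3%, moderate hypoxia; a and b, replicates), with all 6 transcripts above and without STYK1-206 below, on separate linear axes. The bars of 29.7 and 81.0 TPM are STYK1-206 for 89.3% and 95.9%; without it the same libraries stand at 3.18 and 3.36 TPM.

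Summed over all 6 transcripts, the gene stood at 29.7 and 2.56 TPM in the transformed atmospheric libraries and at 2.81 and 81.0 TPM in the metastasizing atmospheric ones. The sums were 1.64 and 1.56 TPM in primary cells at atmospheric oxygen and 7.89 and 5.70 TPM at 3% oxygen. They were 0.636 and 0.504 TPM in immortalized cells at atmospheric oxygen and 1.84 and 2.78 TPM at 3% oxygen. The 3% libraries of the last stages showed no such gap, with 2.52 and 2.28 TPM in transformed and 4.03 and 3.61 TPM in metastasizing cells. As differences of log2(TPM + 0.5), replicate a minus b, the gaps were 3.30 in the transformed and -4.62 in the metastasizing atmospheric group, while in the other 6 groups their size was 0.053 to 0.49. A gap as large as in transformed atmospheric cells was seen in 18 of 11784 protein-coding genes of at least 1 TPM (0.153%), STYK1 included, and one as large as in metastasizing atmospheric cells in 3 of 11904 (0.0252%). The rule had used these gaps, so the shares only place them among all genes.

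The order of the groups changed with the fragment. With all transcripts, mean TPM rose from immortalized atmospheric (0.570 ± 0.0928, SD, n = 2) through primary atmospheric (1.60 ± 0.0549), immortalized 3% (2.31 ± 0.663), transformed 3% (2.40 ± 0.167), metastasizing 3% (3.82 ± 0.296) and primary 3% (6.80 ± 1.54) to transformed atmospheric (16.1 ± 19.2) and metastasizing atmospheric (41.9 ± 55.3). The libraries of immortalized 3% and transformed 3% overlapped, so these neighbours were not ranked, and neither were the last 3 groups, where each neighbouring pair overlapped. For STYK1-201 alone the order ran from immortalized atmospheric (0.570 ± 0.0928) through primary atmospheric (1.47 ± 0.137), transformed 3% (1.83 ± 0.212), immortalized 3% (1.92 ± 0.113), metastasizing atmospheric (2.48 ± 0.256), transformed atmospheric (2.61 ± 0.0699) and metastasizing 3% (3.07 ± 0.765) to primary 3% (5.74 ± 0.0526). Here transformed 3% and immortalized 3% overlapped, as did metastasizing atmospheric with transformed atmospheric and the latter with metastasizing 3%. Primary cells at 3% oxygen therefore held the most full-length STYK1 and immortalized cells at atmospheric oxygen the least, with no overlap to the neighbouring group in either case.

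The oxygen comparison asked how STYK1 stood in moderate hypoxia against atmospheric oxygen within each stage. In primary cells the gene was 4.24-fold higher at 3% oxygen, a difference of 1.78 ± 0.22 on the log2(TPM + 0.5) scale (pooled SD of replicates, n = 2 per group). In immortalized cells it was 4.06-fold higher (1.38 ± 0.26). These differences were large beside the replicate spread, with no overlap of libraries, but 40.8% and 44.9% of the protein-coding genes of at least 1 TPM also lay wholly higher at 3% oxygen in these stages. Endothelial markers moved with oxygen in the same direction in primary cells: the summed TPM of the 5 of 6 markers found was 1.55 and 1.99 at atmospheric oxygen and 10.3 and 10.4 at 3% oxygen, nearly all of it TEK, while CDH5, VWF, CLDN5 and KDR stayed at or below 0.112 TPM in these libraries. In immortalized cells the summed epithelial markers were also higher at 3% oxygen, at 657 and 678 TPM against 300 and 342 TPM. That rise was carried by KRT18, from 248 and 289 TPM to 625 and 645 TPM. KRT8 went the other way, from 50.7 and 52.7 TPM to 30.0 and 29.7 TPM, and EPCAM stayed at or below 0.144 TPM. The fibroblast sum was lower at 3% oxygen, at 15931 and 15547 TPM against 18567 and 18048 TPM, and in primary cells at 17830 and 17327 TPM against 22449 and 21895 TPM. Its members were split in immortalized cells. LUM (4576 and 4051 TPM to 1777 and 1766 TPM), DCN, PDGFRB, S100A4 and FAP were lower in both 3% libraries. COL1A1, COL1A2, COL3A1, THY1 and VIM were higher in both. In primary cells S100A4 rose against the sum, from 1830 and 1811 TPM to 2474 and 2535 TPM. The part of these markers in the STYK1 differences was not tested. Fewer cells with the transcript and less of it per cell cannot be told apart in bulk RNA.

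In transformed and metastasizing cells the sign or the size of the oxygen difference depended on STYK1-206. With all transcripts the transformed difference was -1.73 ± 1.65, with both 3% libraries below both atmospheric ones (35.2% of protein-coding genes lay wholly lower), and the metastasizing difference was -1.93 ± 2.31 with overlapping libraries. Without STYK1-206 the transformed difference was -0.21 ± 0.15 and the metastasizing one turned to 0.24 ± 0.12, its 3% libraries at 3.85 and 3.61 TPM against 2.81 and 3.36 TPM (21.7% of protein-coding genes lay wholly higher at 3% oxygen there). The full-length transcript alone gave 1.67 ± 0.07 in primary and 1.18 ± 0.10 in immortalized cells. After SV40 it gave -0.42 ± 0.10 in the transformed and 0.25 ± 0.24 in the metastasizing stage, the last with overlapping libraries. In ratios of mean TPM, STYK1-201 was 3.91-fold and 3.37-fold higher at 3% oxygen in the primary and immortalized stages, 1.43-fold lower in the transformed stage and 1.24-fold higher in the metastasizing stage. Among all transcripts of at least 1 TPM, 31.5% (primary) and 35.8% (immortalized) lay wholly higher and 30.1% (transformed) wholly lower. A single high library decided the sum in the later stages: without transformed atmospheric replicate a the difference was -0.079, and without metastasizing atmospheric replicate b it was 0.38.

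**Figure D3:**
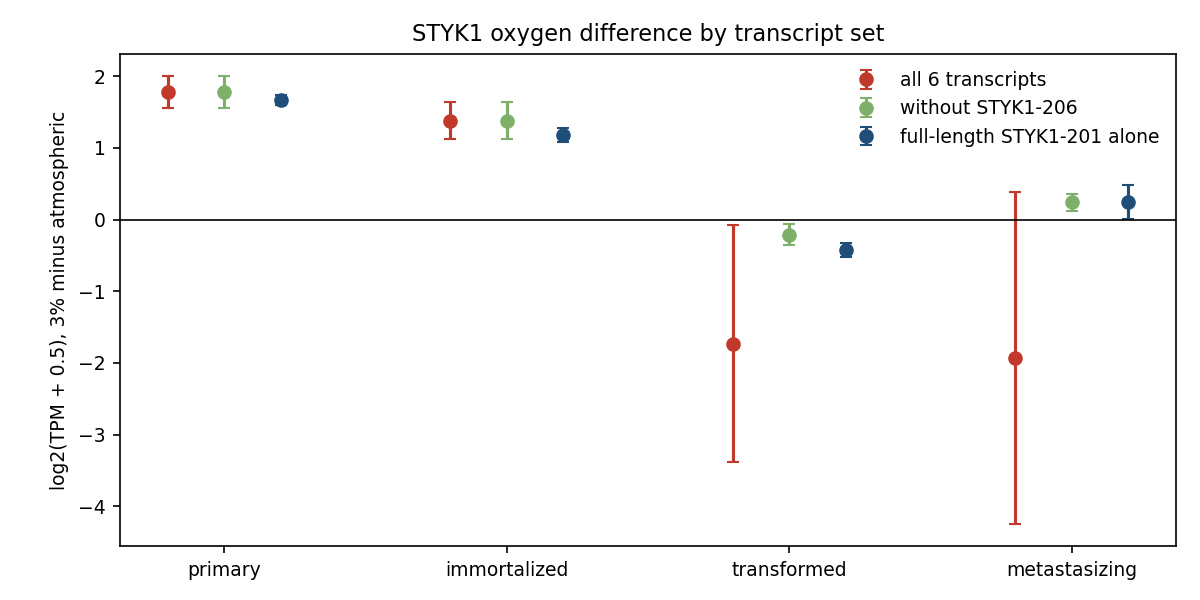
Points give the mean difference of log2(TPM + 0.5), 3% minus atmospheric oxygen, in each stage for 3 sets of STYK1 transcripts; bars are the pooled SD of replicates (n = 2 per group). All sets lie above 0 in primary and immortalized cells, while in metastasizing cells the sum of all transcripts is at -1.93 and the full-length transcript at 0.25.

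The high values of STYK1-206 were next set beside the other 31 matched transcripts that also have exactly 249 bases. In the transformed atmospheric stage, 12 of them were above 0 in replicate a, with 29.2 to 227 TPM and a median of 52.0, and 6 in replicate b, with 0.291 to 0.891 TPM. STYK1-206, at 26.5 TPM in replicate a, lay just below that range. The lowest value of that range, 29.2 TPM, was listed alike for several of these transcripts. In the metastasizing atmospheric stage, 15 of them were above 0 in replicate b, with 2.54 to 873 TPM and a median of 80.3, and STYK1-206 at 77.6 TPM was close to that median. Values in that replicate b included steps of 20.076, 40.152, 80.3039 and 160.608 TPM. Such repeated and stepped values may stand for very few reads, so the high values of STYK1-206 may too. This was not tested. Replicate a of the metastasizing atmospheric group, where STYK1-206 was listed at 0, also had 12 of them at 36.9 to 579 TPM.

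Over all libraries, the medians of the non-zero values of these 249-base transcripts lay far apart, while the ranges overlapped between 2.16 and 2.73 TPM. In 5 libraries (replicate b of primary and of immortalized atmospheric, replicate a of transformed atmospheric and both of metastasizing atmospheric) they ran from 2.16 to 873 TPM, with medians of 22.9 to 185, and in the other 11 from 0.109 to 2.73 TPM, with medians of 0.219 to 0.442. All 5 libraries were atmospheric, and the remaining 3 atmospheric libraries had low medians like the 3% libraries. The only small value of STYK1-206, 0.181 TPM, was in a library with a low median, where the lowest value of the other 249-base transcripts was also 0.181 TPM. The libraries were split by these values after they had been seen, and no sample was regrouped for any comparison.

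**Figure D4:**
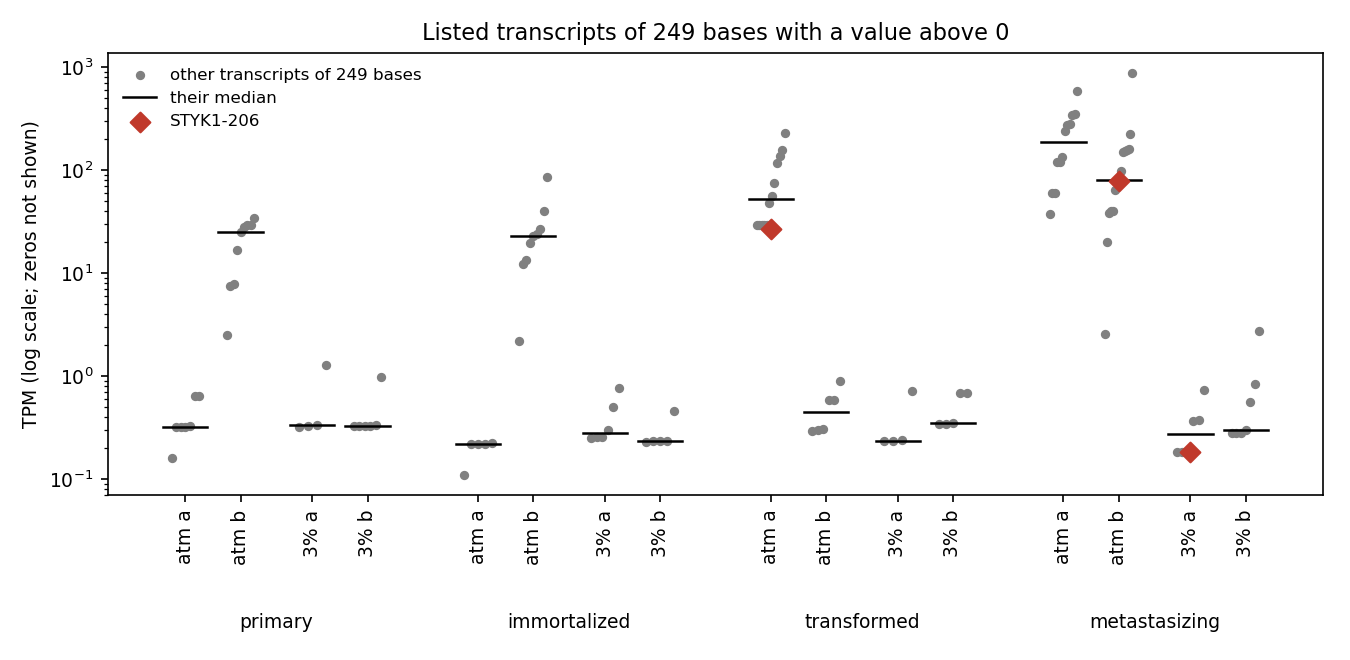
Each grey point is one of the other listed transcripts of 249 bases with a value above 0, in TPM on a log axis, by library, with a line at their median; diamonds are STYK1-206. The diamonds at 26.5 and 77.6 TPM sit in libraries whose medians are 52.0 and 80.3, and the diamond at 0.181 in one with a median of 0.272.

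The labels give an average insert size for each library, from 263.74 to 364 bp, and 249 bases is below it in all 16. The labelled insert size was 315.62 bp in transformed atmospheric replicate a and 263.74 bp in replicate b, and it was 325.2 and 313.57 bp in metastasizing atmospheric replicates a and b. The 2 libraries with the high fragment were thus neither the longest nor the shortest, ranking 7 and 9 of 16 from the longest. Whether insert size or the length correction of the TPM played a part in the values of STYK1-206 was not tested.

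Disagreement between replicates of the kind seen for STYK1-206 was, by median over the groups, more frequent among transcripts under 300 bases than among longer ones. Among transcripts of under 250 bases with at least 10 TPM in one replicate, 0% to 71.2% were listed at 0 in the other replicate (median over the 8 groups, 24.4%), from 1 to 52 such transcripts a group. The share was 22.3% to 36.8% (median 32.4%) at 250 to under 300 bases and 1.46% to 5.06% (median 3.09%) at 300 to under 500 bases. The shortest class thus had a lower median than the next one. At 2000 bases or more, the class of the full-length STYK1-201, it was 0.0342% to 0.178%. The under-250 class had its highest shares at atmospheric oxygen in the primary, immortalized and transformed stages. A pattern like that of STYK1-206, with at least 10 TPM in its 2 high libraries and under 1 TPM in the other 14, was shared by 1 more transcript, also of 249 bases, from the pseudogene MLLT10P2 (29.2 and 20.1 TPM).

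**Figure D5:**
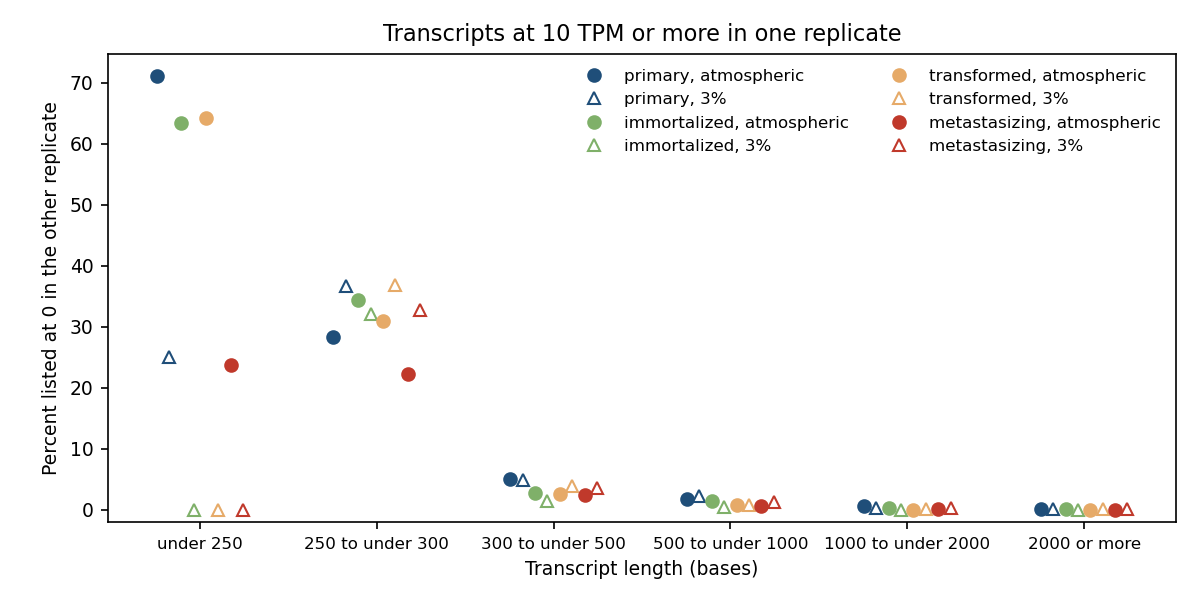
For transcripts of at least 10 TPM in one replicate, points give the percent listed at 0 in the other replicate, by transcript length in bases and by group (filled circles, atmospheric; open triangles, 3% oxygen). The percentages lie between 22.3 and 36.8 at 250 to under 300 bases and between 0.0342 and 0.178 at 2000 bases or more.

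Genes whose levels over the 16 libraries were most like the STYK1 sum were named by Pearson's r on log2(TPM + 0.5), among 13145 protein-coding genes. They were TTI2 (r = 0.83, Spearman's rho = 0.87), DNAL1 (0.83, 0.89), HBG2 (0.83, 0.52), MTERF3 (0.82, 0.80) and TRAPPC13 (0.80, 0.84). TTI2, a cochaperone for PIKK kinases, spanned 10.3 to 18.9 TPM over all libraries, against 0.504 to 81.0 TPM for STYK1. Without the 2 high STYK1 libraries r was 0.78 for TTI2, 0.84 for DNAL1, 0.73 for MTERF3 and 0.74 for TRAPPC13, and 0.091 for HBG2, a foetal globin gene nearly identical to its paralog HBG1, which ranged from 0 to 3.60 TPM. In replicate differences over the 8 groups, the most alike were HBG2 (r = 0.97, rho = 0.87), STX18 (0.97, 0.90), MRPL47 (0.96, 0.81), FAM177A1 (0.95, 0.76) and ZNF555 (0.93, 0.76), and without both groups with the wide STYK1 gap their r was 0.45 to 0.90 over 6 groups. The points share libraries and a common total, and these figures are descriptions.

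For the full-length transcript the most alike genes were different ones, a comparison added after the transcript values were seen. TIMM21, a subunit that assists import into mitochondria, had r = 0.95 (rho = 0.92) with STYK1-201, ERCC6L, a helicase of mitotic chromosomes, 0.94 (0.89), NCBP1, the large subunit of the nuclear cap-binding complex, 0.94 (0.90), CENPL, a kinetochore protein, 0.94 (0.82), and SLC29A1, a nucleoside transporter, 0.94 (0.94). With the 2 libraries farthest from the STYK1-201 median left out (primary 3% replicate a and immortalized atmospheric replicate b), these r were 0.90 to 0.94. Spearman's rho was then 0.74 (CENPL) to 0.92 (SLC29A1). The other replicates of both groups stayed in, at 5.70 and 0.636 TPM of STYK1-201. The highest and lowest groups thus still entered r. TIMM21 stood at 38.9 and 38.1 TPM in primary atmospheric and 60.8 and 61.1 TPM in primary 3% libraries, and at 24.8 and 23.9 TPM in immortalized atmospheric libraries, so its highest and lowest groups were those of STYK1-201.

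The neighbourhood of STYK1 showed no second gene with these single-library values. Of 24 genes listed within 250 kb, 9 exceeded 1 TPM in any library. The nearest, MAGOHB (chr12:10756792-10766208), a paralog of an exon junction complex core subunit, ranged from 28.6 to 81.1 TPM, and YBX3 (chr12:10851688-10875922), a cold-shock domain protein that binds RNA, from 150 to 298 TPM. PRH1 reached 5.10 TPM, KLRA1P 2.40, ENSG00000275778 2.37, KLRC1 1.57, ENSG00000290537 1.44, PRR4 1.25 and KLRC2 1.05 TPM at most. At these low levels some highest values stood beside a replicate at 0. They were those of KLRC1 (metastasizing atmospheric replicate b), ENSG00000290537 (primary 3% replicate a) and KLRC2 (transformed 3% replicate b). ENSG00000275778 overlaps PRH1 and PRR4, whose reads can be split among them. MAGOHB stood at 81.1 and 77.5 TPM in transformed atmospheric and 36.5 and 35.2 TPM in transformed 3% libraries. It fell by 1.13 on the log2 scale there (SE 0.09, limma adjusted p = 1.71e-05), lower in 2 of 2 libraries. MAGOHB was the only one of 4 tested protein-coding neighbours called in that stage, where 7.48% of all genes tested were called. In primary and immortalized cells MAGOHB differed by 0.45 (limma adjusted p = 0.00422) and 0.62 (limma adjusted p = 0.00077), higher at 3% oxygen and under the 2-fold threshold. None of the 4 and 3 neighbours tested there was called by limma, with 1 at an unadjusted p under 0.05 in each. Of all genes tested, 5.3% and 4.91% were called in these stages. In metastasizing cells limma called none of 4, against 7.66% of all genes, and 0 had an unadjusted p under 0.05. ENSG00000275778 had the widest difference there, -0.74. With 3 or 4 genes tested a stage, these counts cannot set the neighbourhood apart from all genes.

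Genes that work beside a receptor-like kinase were then read in the same oxygen contrast, where limma called a gene at an adjusted p under 0.01 and beyond 2-fold. Over all protein-coding genes tested, 5.3% were called in primary cells (2.78% rose and 2.52% fell) and 4.91% in immortalized cells (2.13% and 2.78%). The share was 7.48% in transformed cells (4.9% rose and 2.58% fell) and 7.66% in metastasizing cells (3.06% and 4.6%). The balance of rises and falls turned with the scaling. Median-ratio rescaling gave 261 rises and 382 falls in primary cells against 339 and 307, 173 and 456 in immortalized cells against 257 and 335, and 469 and 440 in metastasizing cells against 376 and 565, where quantile normalization gave 492 and 420. The median log2 difference over all genes was 0.08, 0.11, 0.01 and -0.13 in stage order. STYK1 was left out of these lists.

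Receptor tyrosine kinases, the family STYK1 resembles, moved in both directions. Of 29 tested in primary cells 3 rose and 3 fell, and of 27 in immortalized cells 3 rose and 2 fell. Of 25 in transformed cells 1 rose and 1 fell, and of 28 in metastasizing cells 3 rose and 5 fell. The shares called were 20.7%, 18.5%, 8.0% and 28.6% in stage order, against 5.3%, 4.91%, 7.48% and 7.66% of all genes. In transformed cells the list was thus near the share of all genes. The list medians were -0.04, -0.19, 0.15 and -0.09. TEK, the angiopoietin receptor, rose in primary cells from 1.48 and 1.89 TPM to 10.1 and 10.3 TPM (2.29, SE 0.18, adjusted p = 2.82e-05). PDGFRB, the PDGF receptor of fibroblasts, went from 168 and 147 TPM to 50.1 and 52.4 TPM there and fell by 1.60 (adjusted p = 6.97e-05). MET, the HGF receptor, rose in immortalized cells from 34.7 and 40.6 TPM to 126 and 118 TPM (1.68, adjusted p = 3.28e-05). ROR2, a Wnt5a receptor, went from 5.02 and 7.04 TPM to 1.96 and 1.45 TPM in the same cells and fell by 1.56 (adjusted p = 0.00224). In each of these pairs both 3% libraries lay on one side of both atmospheric ones. In transformed cells the collagen receptor DDR2 rose from 42.7 and 47.8 TPM to 123 and 102 TPM (1.30, adjusted p = 2.65e-05), and the ephrin receptor EPHB2 went from 29.1 and 29.8 TPM to 12.4 and 11.0 TPM and fell by 1.30 (adjusted p = 0.00142). In metastasizing cells TIE1, a partner of TEK, rose from 0.206 and 0.208 TPM to 4.73 and 19.9 TPM (3.87, adjusted p = 0.000267), with a wide gap between the 3% libraries, and ROR2 went from 13.3 and 7.35 TPM to 0.941 and 1.04 TPM and fell by 2.81 (adjusted p = 6.14e-05).

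Genes of the class III PI3K complex and early autophagy had few calls. They made up 5.56% of the list in primary and 11.1% in transformed cells, near the 5.3% and 7.48% of all genes. All 18 were tested in every stage, and 1 fell in primary and 2 rose in transformed cells. None was called in immortalized and metastasizing cells, against 4.91% and 7.66% of all genes. In these 2 stages limma gave 4 and 6 at an unadjusted p under 0.05. GABARAPL1, which coats autophagosomes, went from 233 and 215 TPM to 101 and 119 TPM in primary cells and fell by 1.02 (adjusted p = 0.00053). RB1CC1, a scaffold of the ULK1 kinase complex, rose in transformed cells from 10.2 and 10.6 TPM to 27.1 and 26.3 TPM (1.32, adjusted p = 0.000353). The widest differences in the other stages were -1.35 for SQSTM1 in immortalized cells (adjusted p = 0.0758) and 0.87 for MAP1LC3B in metastasizing cells (adjusted p = 0.0076, under 2-fold). The list medians were 0.10, -0.09, 0.23 and -0.08 in stage order.

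Feedback regulators and targets of the ERK pathway included called genes in every stage. Of 14 tested in each stage, 1 rose and 2 fell in primary cells and 1 fell in immortalized cells. In transformed cells 7 rose, and in metastasizing cells 4 rose and 1 fell. The share called in immortalized cells was 7.14%, near the 4.91% of all genes. It was 21.4% in primary and 35.7% in metastasizing cells, against 5.3% and 7.66% of all genes. In transformed cells 7 of 14 were called, against 7.48% of all genes. The list medians were 0.60, 0.09, 1.06 and 0.71 in stage order. The Sprouty family inhibitor SPRY4 rose in primary cells from 16.3 and 19.1 TPM to 51.8 and 42.5 TPM (1.38, adjusted p = 9.13e-05), and the immediate early factor EGR1 went from 35.0 and 39.2 TPM to 15.2 and 7.64 TPM and fell by 1.73 (adjusted p = 0.000721). SPRY1 fell by 1.87 in immortalized cells (4.56 and 4.15 TPM against 0.809 and 0.838 TPM, adjusted p = 0.000156). PHLDA1 rose in transformed cells from 20.3 and 19.3 TPM to 54.5 and 61.8 TPM (1.53, adjusted p = 0.00405). In metastasizing cells DUSP5, a phosphatase that acts on nuclear ERK, rose from 29.9 and 28.8 TPM to 71.6 and 87.8 TPM (1.42, adjusted p = 1.52e-05), and SPRY1 went from 1.91 and 2.55 TPM to 0.301 and 0.367 TPM and fell by 1.70 (adjusted p = 0.000208). The stages were not tested against each other, and with limma fitted to only the 4 libraries compared the calls in this list were 0, 1, 5 and 0 in stage order, with 11, 6, 11 and 7 at an unadjusted p under 0.05.

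Checks of the whole series bore on the labels. TERT was listed at 0 in both primary atmospheric libraries, reached 0.0370 and 0.543 TPM in the primary 3% libraries, and ranged from 31.6 to 193 TPM in the later stages. All 10 fibroblast markers averaged over 1 TPM, and their sum ranged from 3952 to 22449 TPM, highest in primary cells. Epithelial markers summed to 120 to 678 TPM, with 3 of 10 averaging over 1 TPM, and lymphocyte and natural killer markers to 0.785 to 2.60 TPM, with CD3D and CD3E at 0 in every library. The metastasizing 3% replicates stood farther apart than other pairs, with 10.99% of genes more than 2-fold apart against 1.83% to 4.08% in the other groups, and STYK1 summed to 4.03 and 3.61 TPM there.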

How the data were processed

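RNA of BJ cells was measured in 16 libraries, 2 for each of 4 stages at atmospheric and at 3% oxygen. Per the labels and methods, the authors prepared Illumina TruSeq Stranded mRNA libraries and ran kallisto 0.42.1 with GRCh37 as the reference. The annotation release is not given in the sources used here. The deposited values are TPM per transcript, and depth is unknown. TPM were summed over transcripts to genes with GENCODE 44 lifted to GRCh37, which matched 151453 of 180253 transcripts (88.2% to 90.1% of TPM per library). STYK1 and its lists were chosen with earlier results of these data known. STYK1 was described with no test; differences are on log2(TPM + 0.5), which understates changes of low genes. Other protein-coding genes were tested with limma 3.58.1 (R 4.3.3) in 1 fit of 8 groups with a trended prior. A gene was tested where 1 of the compared groups averaged at least 1 TPM. It was called at Benjamini-Hochberg adjusted p under 0.01 and beyond 2-fold. On simulated data of 12114 genes limma found 181 of 200 changed genes, with 3 false calls. This count was not split by size of change or by TPM. Detection near 2-fold and near 1 TPM was not tested. Named were STYK1, its transcripts and its neighbours over 1 TPM, the called member of each list with the largest rise and fall (or the widest difference where none was called), the 5 genes most like STYK1 and TERT. Sequences, lengths and coordinates came from the same annotation and genome. Alternatives were other pseudocounts, filters, scalings, transcript sets, a replicate block and leaving out each library. Tables were handled with Python 3.11.15, pandas 2.3.3 and numpy 2.4.6.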

Additional observations from a re-analysis of the deposited data

Results flagged for a closer look

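The oxygen difference of STYK1 ran in opposite directions between the stages named here, every 3% library lying above both atmospheric ones in one and below both in the other. Many genes lay wholly on one side in single stages. Of the protein-coding genes, 40.8% (primary), 44.9% (immortalized) and 21.7% (metastasizing) were wholly higher at 3% oxygen, and 35.2% (transformed) wholly lower. The share with opposite moves in a pair of stages was not counted. The differences between stages were not tested. Summed over all transcripts, the log2 difference in transformed cells minus that in primary cells was -3.51, and minus that in immortalized cells -3.11. Both contrasts drew part of their size from transformed atmospheric replicate a. Without it the transformed difference was -0.079, beside 1.78 in primary and 1.38 in immortalized cells. Without STYK1-206 the same contrasts were -1.99 and -1.59, and metastasizing minus transformed was 0.45. For the full-length STYK1-201 alone they were -2.09 and -1.60. The neighbour MAGOHB had the same order of directions, at -1.59 for transformed minus primary and -1.76 for transformed minus immortalized.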

How the results depend on the processing

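In the metastasizing stage the STYK1 oxygen difference of -1.93 turned to 0.24 without STYK1-206, 0.25 with the full-length transcript only and 0.24 without transcripts under 300 bases, these 3 settings being chosen after seeing the data. Leaving out each library in turn gave 1.56 to 2.00 in primary, 1.13 to 1.62 in immortalized, -3.38 to -0.079 in transformed (the weakest without atmospheric replicate a) and -4.24 to 0.38 in metastasizing cells (reversed without atmospheric replicate b). A pseudocount of 0.1 gave 2.00 in primary and 1.83 in immortalized cells, and a pseudocount of 1 gave 1.06 in the latter; rescaling changed no direction of the STYK1 oxygen difference. The replicate gap in transformed atmospheric cells fell to 0.27 without STYK1-206, 0.046 for the full-length transcript and 0.26 without transcripts under 300 bases, and that in metastasizing atmospheric cells to -0.22, -0.18 and -0.22. Small gaps moved too: primary atmospheric to 0.092 (median-ratio), 0.17 (quantile) and -0.14 (full-length only), primary 3% to 0.017 and immortalized 3% to -0.10 (full-length only), and metastasizing 3% to 0.32 (quantile) and -0.44 (full-length only). Without STYK1-206 the leading transcript of metastasizing atmospheric replicate b, then STYK1-201, held 79.4%. All 6 transcripts are annotated as protein-coding and no 2 share a start, so those alternatives changed nothing.

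Fitted to only the 4 libraries compared, limma called 164 genes in primary, 570 in transformed and 112 in metastasizing cells, against 646, 916 and 941, and 3 list members in primary and 0 of 64 in metastasizing cells against 10 and 13, with 23 at an unadjusted p under 0.05. The ERK list then had 0, 1, 5 and 0 calls in stage order against 3, 1, 7 and 5. Leaving out each library gave 320 to 464 genes in primary (lowest without atmospheric replicate a, 348 without 3% replicate b), 270 to 340 in immortalized (every library), 513 to 754 in transformed (547 and 513 without atmospheric replicates a and b) and 495 to 1450 in metastasizing cells (495 and 536 without atmospheric replicates a and b, 1450 without 3% replicate b). The replicate letters were not read as pairs, since deviations of same-lettered libraries correlated at -0.17 to -0.08. With the letter as a replicate block 601, 576, 879 and 896 genes were called in stage order. Of 151 alternative values of the named called genes 141 kept the call, 10 lost it and 0 reversed; the cause was not tested. TPM keep no read counts, so no value of a single short transcript has a counting error here.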
